A study of Homo sapiens with 6 samples.

Results

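The genes described here encode the PRMT5 methylosome, the Sm and Sm-like proteins, the SMN complex and the other arginine methyltransferases. They were followed on arrays of VCaP cells in which PRMT5 had been knocked down. The list holds 36 genes. A probe set, the group of short probes that the array reads as 1 value, was taken as belonging to a gene if the platform annotation gave it that symbol and no other. This gave 72 probe sets of the 54675 on the array, with at least 1 for every gene. The arrays hold 3 groups of 2: VCaP cells with a non-targeting control hairpin (NTC), with PRMT5 shRNA 1 or with PRMT5 shRNA 2. VCaP is an established human prostate cancer line with a TMPRSS2-ERG fusion. All 6 samples, the controls included, received doxycycline at 100 ng/ml for 3 days, so each comparison is between hairpins in treated cells of a single line. Nothing in the labels tells whether paired replicates came from different cultures. The p-values therefore reflect the variation among these arrays alone, which may be technical.

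PRMT5 adds symmetric methyl groups to arginines. It works in a complex with WDR77, the methylosome, to which the adaptors CLNS1A (pICln), RIOK1 and COPRS bring different substrates. Among the substrates that CLNS1A brings are Sm proteins, which the SMN complex then assembles into a ring on the small nuclear RNAs (snRNAs) of the spliceosome. The Sm-like proteins LSM2 to LSM8 form the matching ring on U6 snRNA, and LSM10 and LSM11 replace a pair of Sm proteins on U7 snRNA, which serves the 3' end processing of histone mRNA. The arrays read the mRNA of these genes and not their protein, their methylation or the assembly of snRNPs. In RNA from bulk cultures, fewer cells of a kind and less RNA per cell cannot be told apart.

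Each value is the linear-scale intensity of a probe set. Array medians lay between 14.8 and 16.4. Probe sets that reached the median of their array on at least 2 arrays were kept, which held for 66 of the 72. Each gene is represented by its brightest kept probe set unless another is named. The 6 that were left out include the only probe set of SNRPN, at 1.5 to 3.8 on the 6 arrays, so 35 members were tested among 12413 genes. Changes are given as log2 differences of intensity + 16 ± the standard error (SE) that limma fitted, and were called at a Benjamini-Hochberg adjusted p under 0.05 over all 12413 genes. The median standard deviation (SD) between the 2 arrays of a group was 0.046 (NTC), 0.042 (PRMT5 shRNA 1) and 0.090 (PRMT5 shRNA 2) on the log2 scale for the 35 members. It was 0.055, 0.056 and 0.072 for all genes. The 9 measured VCaP markers were present, with summed intensities of 13348 to 13648 (NTC), 14791 to 15583 (PRMT5 shRNA 1) and 14851 to 16129 (PRMT5 shRNA 2). On average 4 of them were higher and 3 lower, among them KLK3 at 223% and 218% of the NTC mean. The 10 markers of stromal, endothelial, immune and basal cells summed to 105.0 to 119.2, 73.0 to 92.7 and 113.2 to 138.1 in that order. Of these, COL1A1 and KRT14 passed the filter. Both were higher with PRMT5 shRNA 2 than with PRMT5 shRNA 1 (0.54 ± 0.13 and 0.57 ± 0.12; limma, adjusted p = 0.0157 and 0.00809), and KRT14 was lower with PRMT5 shRNA 1 than with NTC (-0.43 ± 0.12, adjusted p = 0.0175). The 3' to 5' signal ratio of ACTB control probe sets, a sign of RNA or cDNA quality, was 4.58 and 4.88 with NTC, 3.49 and 3.88 with PRMT5 shRNA 1, and 5.72 and 4.995 with PRMT5 shRNA 2. It thus differed most between the PRMT5 hairpins. The part of these markers and of this ratio in the results was not tested.

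Outside PRMT5 itself, the differences of these genes were small, and more members were called with PRMT5 shRNA 1 than with PRMT5 shRNA 2. With the mean of both hairpins against NTC, 8 of 35 members were lower and 0 higher (22.9% called), against 32.4% of all genes called (15.4% higher, 17.0% lower). Their median log2 difference was -0.06, against -0.01 over all genes tested. With PRMT5 shRNA 1 alone, 9 members were lower and 4 higher, against 39.3% of all genes called (16.2% higher, 23.2% lower). With PRMT5 shRNA 2 alone, 5 were lower and 0 higher, against 21.5% of all genes (13.1% higher, 8.42% lower). Both of these comparisons use the same control arrays. PRMT5, LSM11 and GEMIN5 were called lower in each. PRMT5 shRNA 2 differed directly from PRMT5 shRNA 1 in 13 members, 6 higher and 7 lower, against 25.7% of all genes (18.3% higher, 7.38% lower).

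The counts rest on few arrays. Without NTC replicate 1, 5 members were called for the averaged comparison, 8 for PRMT5 shRNA 1 and 1 for PRMT5 shRNA 2, while the shares over all genes were 17.7%, 25.7% and 12.6%. Without PRMT5 shRNA 1 replicate 1 or replicate 2, 7 were called for that hairpin (28.5% and 25.7% of all genes), and 7 and 4 between the hairpins (14.0% and 10.8% of all genes). Without PRMT5 shRNA 2 replicate 2, 8 were called between the hairpins (16.3% of all genes). With both hairpins as 1 group of 4 arrays, whose spread then holds the difference between hairpins, 3 members were called, all lower, and 12.1% of all genes. The calls over all genes thus became fewer in the same fits. In some comparisons, fits without a PRMT5 shRNA 2 array called more members than the main fit did.

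**Figure D1:**
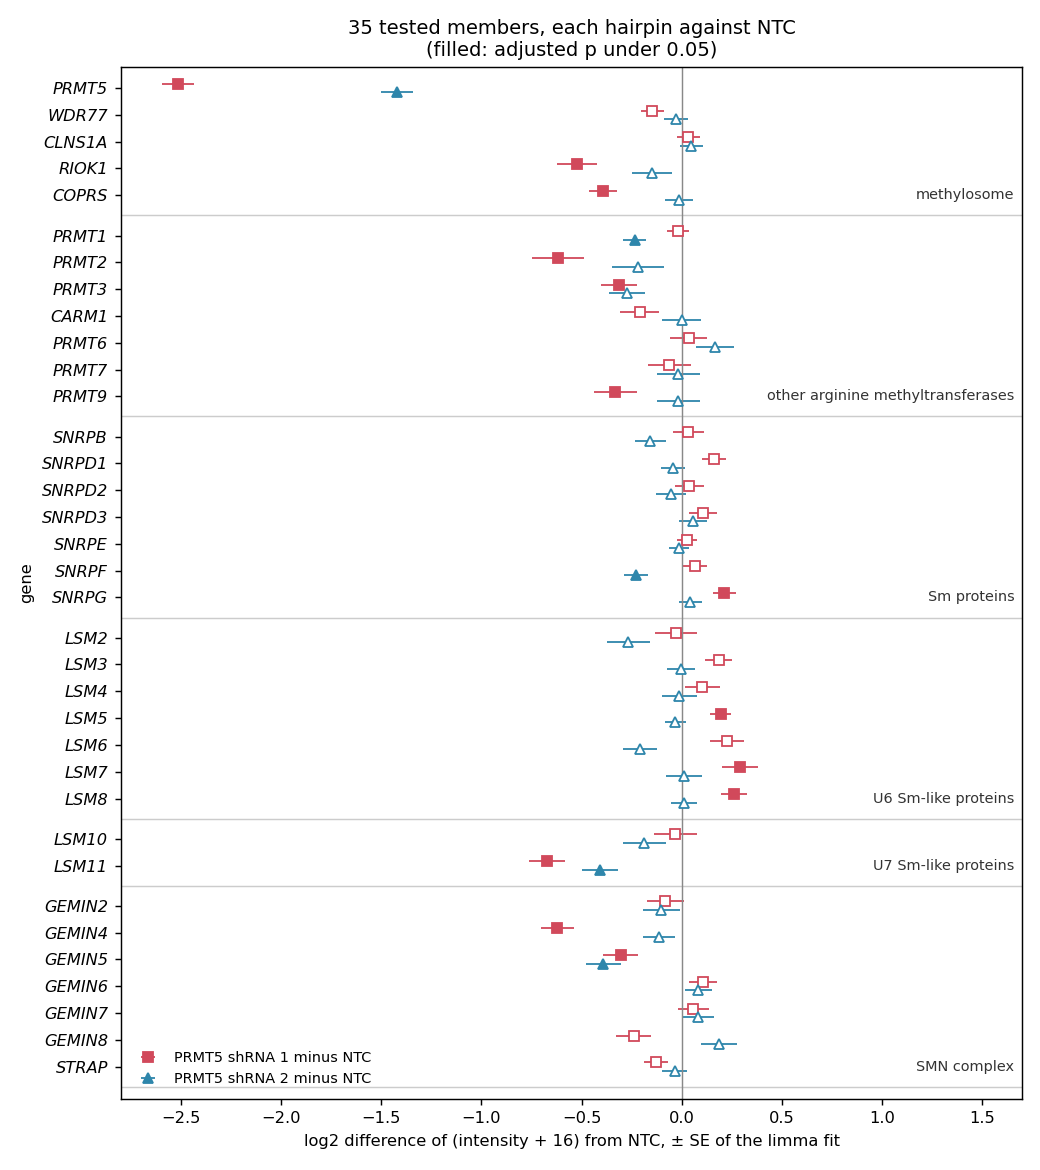
Log2 difference of (intensity + 16) from NTC for the 35 tested members, grouped by role, with PRMT5 shRNA 1 as squares and PRMT5 shRNA 2 as triangles. Bars are the SE of limma's fit and filled symbols mark an adjusted p under 0.05. PRMT5 stands at -2.51 and -1.42, while every other member lies between -0.67 and 0.29.

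PRMT5, the target of both hairpins, is described first as a check of the labels. Its intensity was 809.8 and 880.5 on the NTC arrays, 135.6 and 133.8 with PRMT5 shRNA 1, and 291.2 and 321.0 with PRMT5 shRNA 2. All 4 knockdown arrays lay below both control arrays, and the PRMT5 hairpins did not overlap each other. The remaining signal was 15.9% of the NTC mean with PRMT5 shRNA 1 and 36.2% with PRMT5 shRNA 2. Both falls passed in limma's fit (adjusted p = 5.4e-09 and 4.6e-07), and the hairpins differed by 1.09 ± 0.08 (SE, adjusted p = 7.8e-05). The other kept PRMT5 probe sets gave log2 differences of -2.45 and -2.48 with PRMT5 shRNA 1 and -1.41 and -1.50 with PRMT5 shRNA 2.

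The core partner WDR77, the beta-propeller protein that binds PRMT5, had intensities of 1216.4 and 1241.6 with NTC, 1093.9 and 1124.6 with PRMT5 shRNA 1, and 1241.9 and 1167.6 with PRMT5 shRNA 2. It lay below control on both PRMT5 shRNA 1 arrays, by a log2 difference of -0.15 ± 0.06 that did not pass (limma, adjusted p = 0.067), and at -0.03 ± 0.06 with PRMT5 shRNA 2. It passed for PRMT5 shRNA 1 after quantile normalization (-0.17, adjusted p = 0.0201), with the mean over its 2 probe sets (-0.15, adjusted p = 0.0465) and without PRMT5 shRNA 2 replicate 1 (-0.15, adjusted p = 0.0434) or replicate 2 (-0.15, adjusted p = 0.043). The hairpin difference of WDR77 was 0.12 ± 0.06 and did not pass (limma, adjusted p = 0.161). On its dimmer probe set it was 0.26 ± 0.08 (adjusted p = 0.0272 over all kept probe sets). With the mean over both probe sets it was 0.19 (adjusted p = 0.0269). CLNS1A, the adaptor that hands Sm proteins to the complex, read 1828.3 and 1820.6 with NTC, 1785.3 and 1949.1 with PRMT5 shRNA 1, and 1900.3 and 1873.9 with PRMT5 shRNA 2. The knockdown means were 102% and 103% of the NTC mean, and neither difference passed (0.03 ± 0.06 and 0.05 ± 0.06). Its dimmer probe set read 60.3 and 59.7 with NTC, 72.4 and 73.9 with PRMT5 shRNA 1, and 53.1 and 50.7 with PRMT5 shRNA 2. On that probe set neither hairpin passed against NTC. The hairpins differed there by -0.39 ± 0.10 (limma, adjusted p = 0.0148 over all kept probe sets), against 0.02 ± 0.06 on the brightest.

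RIOK1, an atypical kinase that competes with CLNS1A for PRMT5 and brings it other substrates, read 111.4 and 128.0 with NTC, 76.5 and 80.0 with PRMT5 shRNA 1, and 104.3 and 108.0 with PRMT5 shRNA 2. It was lowest with PRMT5 shRNA 1, at 65.4% of the NTC mean, and the 3 groups did not overlap. It fell by 0.52 ± 0.10 with PRMT5 shRNA 1 (limma, adjusted p = 0.00195). With PRMT5 shRNA 2 the difference was -0.15 ± 0.10 (adjusted p = 0.32), and the hairpins differed by 0.37 ± 0.10 (adjusted p = 0.019). That difference did not pass without PRMT5 shRNA 1 replicate 1 (adjusted p = 0.092) or replicate 2 (0.0725) or without PRMT5 shRNA 2 replicate 2 (0.0716). The averaged fall of 0.34 ± 0.09 (adjusted p = 0.012) did not pass without NTC replicate 2 (-0.25, adjusted p = 0.159) or with both hairpins as 1 group (adjusted p = 0.186).

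COPRS, which directs PRMT5 to histones, read 602.9 and 554.2 with NTC, 427.4 and 444.4 with PRMT5 shRNA 1, and 563.7 and 582.6 with PRMT5 shRNA 2. The second hairpin lay within the control arrays, while the first was at 75.4% of the NTC mean. COPRS fell by 0.39 ± 0.07 with PRMT5 shRNA 1 (limma, adjusted p = 0.0013), had -0.01 ± 0.07 with PRMT5 shRNA 2, and differed between hairpins by 0.38 ± 0.07 (adjusted p = 0.0038). Its averaged call (-0.20 ± 0.06, adjusted p = 0.025) was lost without NTC replicate 1 (-0.14, adjusted p = 0.255), without PRMT5 shRNA 1 replicate 1 (-0.19, adjusted p = 0.0655) and with both hairpins as 1 group (adjusted p = 0.357).

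**Figure D2:**
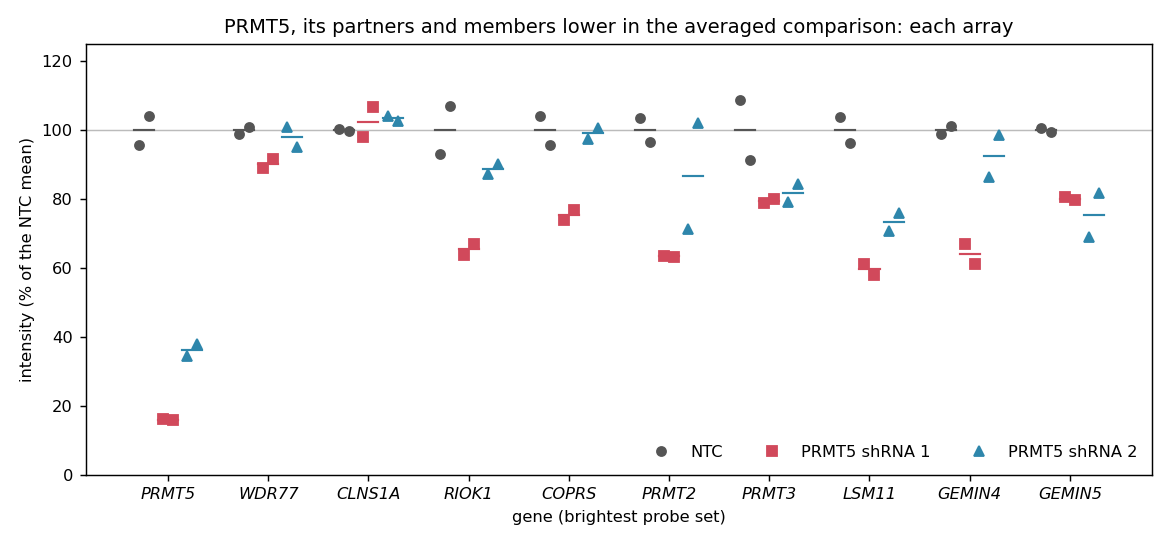
Intensity of each array as a percentage of the NTC mean, from each gene's brightest probe set, for PRMT5, its 4 partners and the other members called lower in the averaged comparison; short lines are means of 2 arrays. PRMT5 was at 15.9% and 36.2%, LSM11 and GEMIN5 were below control with both hairpins, and RIOK1, COPRS and GEMIN4 were lowest with PRMT5 shRNA 1.

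Of the 7 other arginine methyltransferases, 2 were lower and 0 higher in the averaged comparison (28.6% called, near the 32.4% of all genes). PRMT3, which methylates the ribosomal protein RPS2, read 398.7 and 335.2 with NTC, 289.6 and 293.4 with PRMT5 shRNA 1, and 290.3 and 309.5 with PRMT5 shRNA 2. All 4 knockdown arrays lay below both controls, which differed from each other by more than the knockdown arrays did. The averaged fall was 0.29 ± 0.08 (limma, adjusted p = 0.015), and it did not pass without NTC replicate 1, the higher control (-0.17, adjusted p = 0.227), or with both hairpins as 1 group (adjusted p = 0.0873). With PRMT5 shRNA 1 alone it fell by 0.31 ± 0.09 (adjusted p = 0.018), which did not pass without NTC replicate 1 (-0.19, adjusted p = 0.187) or without PRMT5 shRNA 1 replicate 1 (adjusted p = 0.0767) or replicate 2 (0.0684). PRMT5 shRNA 2 gave -0.27 ± 0.09, with an adjusted p of 0.0504 that missed the threshold narrowly. The difference was -0.39 without NTC replicate 2. In the fit on means over probe sets it passed (-0.27, limma, adjusted p = 0.0347). PRMT3 has 1 probe set, so only the values of other genes changed in that fit.

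PRMT2, a coactivator of nuclear receptors, read 347.5 and 323.8 with NTC, 213.3 and 212.3 with PRMT5 shRNA 1, and 239.4 and 342.3 with PRMT5 shRNA 2. The PRMT5 shRNA 2 arrays stood far apart, 1 near the first hairpin and 1 at control level. PRMT2 fell by 0.62 ± 0.13 with PRMT5 shRNA 1 (limma, adjusted p = 0.0035) and by 0.42 ± 0.11 on average (adjusted p = 0.016). The averaged call was lost without NTC replicate 1 (-0.37, adjusted p = 0.112), with both hairpins as 1 group (adjusted p = 0.157) and with the mean over 6 kept probe sets (-0.12, adjusted p = 0.221). The call for PRMT5 shRNA 1 was also lost with the mean over probe sets (-0.17, adjusted p = 0.125). With PRMT5 shRNA 2 the difference was -0.22 ± 0.13 (adjusted p = 0.27), and it was -0.46 without replicate 2 of that hairpin (adjusted p = 0.00714). The difference of 0.40 ± 0.13 between hairpins (adjusted p = 0.042) was 0.16 without that array (adjusted p = 0.253). It also missed the threshold without any other single array except PRMT5 shRNA 2 replicate 1, with adjusted p from 0.05 to 0.143. The difference did not pass after quantile normalization (0.0561) or with the mean over probe sets (0.384). Nor did it pass without a filter on dim probe sets (0.0909) or without an intensity trend (0.0825). The next brightest PRMT2 probe set was also called lower with PRMT5 shRNA 1 (-0.31 ± 0.10, limma, adjusted p = 0.0324 over all kept probe sets). The other dimmer ones did not pass there, at -0.22 to 0.13. Between hairpins the next brightest had 0.43 ± 0.10 (adjusted p = 0.0104) and another had 0.31 ± 0.10 (0.0423). The rest had -0.03 to -0.27 and did not pass.

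PRMT1, the main asymmetric arginine methyltransferase of most cells, read 991.8 and 1004.1 with NTC, 971.4 and 998.8 with PRMT5 shRNA 1, and 852.8 and 838.5 with PRMT5 shRNA 2. It was lower with the second hairpin, by 0.23 ± 0.06 (limma, adjusted p = 0.013), and at control level with the first (-0.02 ± 0.06). The hairpins differed by -0.22 ± 0.06 (adjusted p = 0.019). The fall did not pass without NTC replicate 1 (adjusted p = 0.0729) or replicate 2 (0.0907). The difference between hairpins was lost without replicate 1 (0.0617) or replicate 2 (0.118) of PRMT5 shRNA 1, without replicate 2 of PRMT5 shRNA 2 (0.0588) and without an intensity trend (0.0528).

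PRMT9, which methylates the splicing factor SF3B2, read 149.1 and 169.4 with NTC, 127.5 and 118.6 with PRMT5 shRNA 1, and 142.8 and 172.0 with PRMT5 shRNA 2. It was lower with PRMT5 shRNA 1 by 0.33 ± 0.11 (limma, adjusted p = 0.0295). That call was lost without NTC replicate 2 (-0.25, adjusted p = 0.196), without replicate 1 (0.0621) or replicate 2 (0.152) of PRMT5 shRNA 1 and without a filter on dim probe sets (0.0597). The coactivator CARM1, PRMT6 and PRMT7 were called in none of the 4 comparisons, with averaged differences of -0.10 ± 0.08, 0.10 ± 0.08 and -0.04 ± 0.09. PRMT7 was dim, at 20.0 to 22.9. CARM1 was lower on both PRMT5 shRNA 1 arrays (278.6 and 263.3, against 317.9 and 313.6 with NTC), at -0.21 ± 0.10 (adjusted p = 0.11), and passed without PRMT5 shRNA 2 replicate 1 (adjusted p = 0.0375) or replicate 2 (0.0361).

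LSM11, the Sm-like protein that recruits the histone pre-mRNA cleavage machinery to U7, had the largest averaged fall after PRMT5. It read 201.0 and 186.3 with NTC, 118.7 and 112.5 with PRMT5 shRNA 1, and 136.8 and 147.3 with PRMT5 shRNA 2. All 4 knockdown arrays were below both controls, at 59.7% and 73.4% of the NTC mean. It fell by 0.54 ± 0.08 on average (limma, adjusted p = 0.000403), by 0.67 ± 0.09 with PRMT5 shRNA 1 (adjusted p = 0.00022) and by 0.41 ± 0.09 with PRMT5 shRNA 2 (adjusted p = 0.0079). The last call was lost without NTC replicate 1 (-0.36, adjusted p = 0.0813). A second kept LSM11 probe set was at background, at 11.2 to 18.2, and gave an averaged difference of -0.09 ± 0.10. LSM10, its partner on the U7 ring, read 72.3 and 84.8 with NTC, 73.6 and 79.1 with PRMT5 shRNA 1, and 70.8 and 63.2 with PRMT5 shRNA 2, and did not pass (-0.11 ± 0.09).

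In the SMN complex, which loads Sm proteins onto snRNA, 2 of 7 members were lower on average and 0 higher (28.6% called, near the 32.4% of all genes). GEMIN5, the subunit that recognises the snRNA, read 376.1 and 372.1 with NTC, 301.6 and 298.1 with PRMT5 shRNA 1, and 258.4 and 306.2 with PRMT5 shRNA 2. It was below control on all 4 knockdown arrays, and the PRMT5 hairpins overlapped. It fell by 0.35 ± 0.07 on average (limma, adjusted p = 0.0049), by 0.30 ± 0.09 with PRMT5 shRNA 1 (adjusted p = 0.017) and by 0.39 ± 0.09 with PRMT5 shRNA 2 (adjusted p = 0.0078). The averaged call was kept under each alternative that was run. The call for PRMT5 shRNA 1 was lost without NTC replicate 1 (0.0803) or replicate 2 (0.0665) and without replicate 1 (0.0625) or replicate 2 (0.0802) of that hairpin, and that for PRMT5 shRNA 2 without NTC replicate 1 (0.0511).

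GEMIN4, a subunit that binds the helicase GEMIN3 (DDX20), read 529.7 and 542.1 with NTC, 359.2 and 327.1 with PRMT5 shRNA 1, and 462.7 and 528.0 with PRMT5 shRNA 2. It was lowest with PRMT5 shRNA 1 and at 92.4% of the NTC mean with PRMT5 shRNA 2, and the 3 groups did not overlap. It fell by 0.62 ± 0.08 with PRMT5 shRNA 1 (limma, adjusted p = 0.00019), had -0.11 ± 0.08 with PRMT5 shRNA 2 (adjusted p = 0.36), and differed between hairpins by 0.51 ± 0.08 (adjusted p = 0.0023). A dimmer GEMIN4 probe set gave -0.38 ± 0.10 with PRMT5 shRNA 1 (adjusted p = 0.013 over all kept probe sets) and -0.04 ± 0.10 with PRMT5 shRNA 2. The averaged call (-0.37 ± 0.07, adjusted p = 0.0025) was lost with both hairpins as 1 group (adjusted p = 0.195).

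GEMIN8, which binds SMN and anchors the GEMIN6 and GEMIN7 pair, read 239.0 and 279.6 with NTC, 223.5 and 209.6 with PRMT5 shRNA 1, and 294.8 and 298.1 with PRMT5 shRNA 2. The hairpins lay on opposite sides of control and differed by 0.43 ± 0.09 (limma, adjusted p = 0.00705), although neither passed against NTC (-0.24 ± 0.09 and 0.19 ± 0.09). Without NTC replicate 1, PRMT5 shRNA 1 passed (-0.35, adjusted p = 0.032), and without PRMT5 shRNA 1 replicate 2 the hairpin difference did not (0.38, adjusted p = 0.0585). The difference was 0.08 with the mean over 3 probe sets and -0.22 without the probe sets marked _s_at or _x_at (adjusted p = 0.421 and 0.0763), so it rests on 1 probe set. GEMIN2, GEMIN6, GEMIN7 and STRAP (unrip) were called in none of the 4 comparisons, with averaged differences from -0.09 to 0.09. STRAP passed for PRMT5 shRNA 1 after quantile normalization (-0.18, adjusted p = 0.0253) and without PRMT5 shRNA 1 replicate 2 (-0.21, adjusted p = 0.0468). Its dim probe set went the other way, at 0.38 ± 0.11 with PRMT5 shRNA 1 (adjusted p = 0.0168 over all kept probe sets) and -0.47 ± 0.11 between the hairpins (adjusted p = 0.00975).

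The sequences just upstream of the transcription start are shown for the 4 members other than PRMT5 with the lowest adjusted p in the averaged comparison, LSM11, GEMIN4, GEMIN5 and RIOK1. They show what these promoters share in letters. RefSeq promoter windows on GRCh38.p14 were matched by symbol for 34 of the 36 members, and each run covers the 180 bases before the start, 5′ to 3′ on the gene's strand. LSM11 is at chr5:157743532-157743711 on the plus strand, GEMIN4 at chr17:752265-752444 on the minus strand, GEMIN5 at chr5:154938212-154938391 on the minus strand and RIOK1 at chr6:7389628-7389807 on the plus strand. Capitals mark matches, on either strand, to the GC box GGGCGG and the ETS core CCGGAAG.
LSM11: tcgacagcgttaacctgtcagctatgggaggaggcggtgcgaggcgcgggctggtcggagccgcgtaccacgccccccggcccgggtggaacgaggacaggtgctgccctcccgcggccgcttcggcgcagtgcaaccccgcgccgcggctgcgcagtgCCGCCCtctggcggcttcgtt
GEMIN4: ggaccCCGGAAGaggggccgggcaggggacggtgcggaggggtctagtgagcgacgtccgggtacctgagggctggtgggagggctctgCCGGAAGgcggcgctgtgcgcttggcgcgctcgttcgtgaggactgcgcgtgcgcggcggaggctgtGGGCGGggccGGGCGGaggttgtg
GEMIN5: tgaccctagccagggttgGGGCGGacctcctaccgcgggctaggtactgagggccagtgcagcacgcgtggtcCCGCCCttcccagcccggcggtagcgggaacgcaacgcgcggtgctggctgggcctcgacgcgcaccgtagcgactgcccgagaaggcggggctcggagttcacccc
RIOK1: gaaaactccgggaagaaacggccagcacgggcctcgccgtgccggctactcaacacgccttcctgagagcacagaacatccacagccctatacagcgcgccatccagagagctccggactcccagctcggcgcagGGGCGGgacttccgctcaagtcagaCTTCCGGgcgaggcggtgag

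Over the 250 bases before the start, the GC box occurred 1 time in LSM11, 2 times in GEMIN4, 2 times in GEMIN5 and 1 time in RIOK1, and 42.6% of the 35116 RefSeq promoter windows held it. The ETS core occurred 2 times in GEMIN4, 1 time in RIOK1 and 0 times in LSM11 and GEMIN5, against 8.52% of all windows. The E-box CACGTG and the CCAAT box CCAAT were also searched on both strands. They had 0 matches in these 4 promoters and were in 6.34% and 32.0% of all windows. No matches of the 4 motifs overlapped in these promoters. A match is a description of letters, not of a bound site.

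On their brightest probe sets, the Sm and U6 Sm-like genes moved little in the averaged comparison. Of 14 tested (7 Sm and 7 Sm-like), limma called 0, against 32.4% of all genes, and 2 had an unadjusted p under 0.05. The 14 log2 differences ranged from -0.15 to 0.15. In the fit over all kept probe sets, dimmer ones of SNRPD1 (-0.25), LSM3 (-0.28) and LSM8 (-0.33, -0.35 and -0.26) were called lower on average. A dimmer probe set of LSM4 was called higher (0.29). SNRPD3, with SNRPB and SNRPD1 an Sm protein whose tail PRMT5 methylates, read 1428.1 and 1524.6 with NTC, 1641.8 and 1536.7 with PRMT5 shRNA 1, and 1632.9 and 1440.4 with PRMT5 shRNA 2, and its averaged difference was 0.08 ± 0.06. SNRPB, which encodes SmB, had -0.06 ± 0.07, and SNRPD2 and SNRPE had -0.01 ± 0.06 and 0.01 ± 0.04.

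With PRMT5 shRNA 1, 13 of these 14 genes lay above NTC and 4 were called higher (28.6%), against 16.2% of all genes higher and 39.3% called. Their median was 0.13 against -0.04 over all genes. Several genes fell below 0 in other settings: SNRPD2 and SNRPE after quantile normalization (-0.04 and -0.06), LSM3 and LSM8 with the mean over probe sets (-0.13 and -0.27), and SNRPD1 and LSM5 without probe sets marked _s_at or _x_at (-0.13 each). SNRPB did so without NTC replicate 1 (-0.02) and SNRPD2 without PRMT5 shRNA 1 replicate 2 (-0.03). LSM7 read 174.8 and 192.9 with NTC, 230.8 and 225.2 with PRMT5 shRNA 1, and 197.2 and 174.3 with PRMT5 shRNA 2. LSM8 read 664.0 and 684.1, 785.9 and 834.4, and 701.1 and 657.9 in that order. Both were higher with PRMT5 shRNA 1 without overlap, by 0.29 ± 0.09 (LSM7; limma, adjusted p = 0.0265) and 0.26 ± 0.07 (LSM8; adjusted p = 0.00945), and at control level with PRMT5 shRNA 2 (0.01 ± 0.09 and 0.01 ± 0.07).

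SNRPG, the smallest subunit of the Sm ring, read 1058.2 and 1094.8 with NTC, 1252.3 and 1245.9 with PRMT5 shRNA 1, and 1139.3 and 1079.3 with PRMT5 shRNA 2. LSM5 read 1394.3 and 1418.9, 1616.0 and 1608.2, and 1381.6 and 1367.1. They were higher with PRMT5 shRNA 1 by 0.21 ± 0.06 (SNRPG; limma, adjusted p = 0.014) and 0.19 ± 0.05 (LSM5; adjusted p = 0.013). Each of the 4 calls was lost without NTC replicate 1 (LSM7, adjusted p = 0.181; LSM8, 0.069; SNRPG, 0.106; LSM5, 0.0978) and without PRMT5 shRNA 1 replicate 2 (0.0868, 0.0834, 0.0632 and 0.0614). Without PRMT5 shRNA 1 replicate 1, LSM7 (0.113), SNRPG (0.0655) and LSM5 (0.064) were lost, and without NTC replicate 2, LSM5 (0.063). LSM5 was also lost without an intensity trend (0.0509), LSM5 and LSM8 in fits of their other probe sets, described further on.

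On the brightest probe sets, all 14 genes were lower with PRMT5 shRNA 2 than with PRMT5 shRNA 1, by 0.04 to 0.44 (log2). In the fit over all kept probe sets, dimmer ones of LSM3 (0.32 ± 0.08) and LSM8 (0.40 ± 0.08) were called higher. Their adjusted p was 0.0133 and 0.00703 (limma). Dimmer ones of SNRPB, SNRPD1, SNRPE and LSM4 were called lower. Single genes crossed 0 in other settings without passing: SNRPE after quantile normalization (0.03), LSM3 and LSM8 with the mean over probe sets (0.07 and 0.13), and SNRPD2, SNRPD3 and LSM4 without PRMT5 shRNA 2 replicate 2 (0.01, 0.04 and 0.03). Of the 14, 6 passed and were lower (42.9%), against 7.38% of all genes lower and a median over all genes of 0.06. LSM6 read 278.0 and 248.6 with NTC, 315.4 and 305.1 with PRMT5 shRNA 1, and 214.7 and 236.1 with PRMT5 shRNA 2, so the hairpins stood on opposite sides of control. The hairpin difference of LSM6 was -0.44 ± 0.09 (limma, adjusted p = 0.0053) and was kept under each alternative that was run, while neither hairpin passed against NTC (0.23 ± 0.09 and -0.21 ± 0.09). The rise with PRMT5 shRNA 1 passed after quantile normalization (0.27, limma, adjusted p = 0.0277) and in the fit on means over probe sets (0.23, adjusted p = 0.0335). LSM6 has 1 probe set, so only the values of other genes changed in the latter fit. With either PRMT5 shRNA 2 array left out the rise was also 0.23.

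SNRPF, a subunit of the Sm ring, read 919.1 and 958.6 with NTC, 963.0 and 1004.5 with PRMT5 shRNA 1, and 788.2 and 807.2 with PRMT5 shRNA 2. It was lower with PRMT5 shRNA 2 than with PRMT5 shRNA 1 by 0.30 ± 0.06 (limma, adjusted p = 0.0060). On the brightest probe sets, it is the Sm gene called lower against NTC with PRMT5 shRNA 2 (-0.23 ± 0.06, adjusted p = 0.018). The fall against NTC was lost without NTC replicate 1 (0.0608) or replicate 2 (0.139), without PRMT5 shRNA 2 replicate 1 (0.0639) and without an intensity trend (0.0534), and the hairpin difference without PRMT5 shRNA 1 replicate 2 (-0.27, adjusted p = 0.0552). SNRPD1 read 1669.7 and 1648.9 with NTC, 1853.6 and 1866.4 with PRMT5 shRNA 1, and 1695.4 and 1528.5 with PRMT5 shRNA 2. Its dimmer probe set also fell against NTC with PRMT5 shRNA 2, by 0.36 ± 0.06 (limma, adjusted p = 0.0019 over all kept probe sets).

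The remaining hairpin differences of this kind were -0.21 ± 0.06 (SNRPD1; limma, adjusted p = 0.0285), -0.23 ± 0.05 (LSM5; 0.011), -0.28 ± 0.09 (LSM7; 0.045) and -0.25 ± 0.07 (LSM8; 0.019). All 4 missed the threshold without PRMT5 shRNA 1 replicate 2 (SNRPD1, adjusted p = 0.123; LSM5, 0.0613; LSM7, 0.138; LSM8, 0.137). Without PRMT5 shRNA 1 replicate 1, SNRPD1 (0.0955), LSM5 (0.0573) and LSM7 (0.166) missed it. Without PRMT5 shRNA 2 replicate 2, SNRPD1 (-0.13, adjusted p = 0.136), LSM7 (-0.19, 0.203) and LSM8 (-0.20, 0.0852) missed it. LSM7 also did without NTC replicate 1 (0.0571) or replicate 2 (0.0578), and SNRPD1 without NTC replicate 2 (0.0502). LSM7 missed it with the replicate number as a block as well (adjusted p = 0.0636). Without a filter on dim probe sets SNRPD1 (0.0575) and LSM7 (0.0777) missed it, and likewise without an intensity trend (0.0874 and 0.0537). LSM5 was at -0.14 with the mean over probe sets (adjusted p = 0.0721) and at -0.06 without those marked _s_at or _x_at (0.624). The ACTB 3' to 5' ratio was lowest on both PRMT5 shRNA 1 arrays and highest on both PRMT5 shRNA 2 arrays, in the same split as these genes. The summed markers of other cells were also lowest with PRMT5 shRNA 1 (73.0 to 92.7) and reached their highest with PRMT5 shRNA 2 (113.2 to 138.1). The part of either in the result was not tested.

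**Figure D3:**
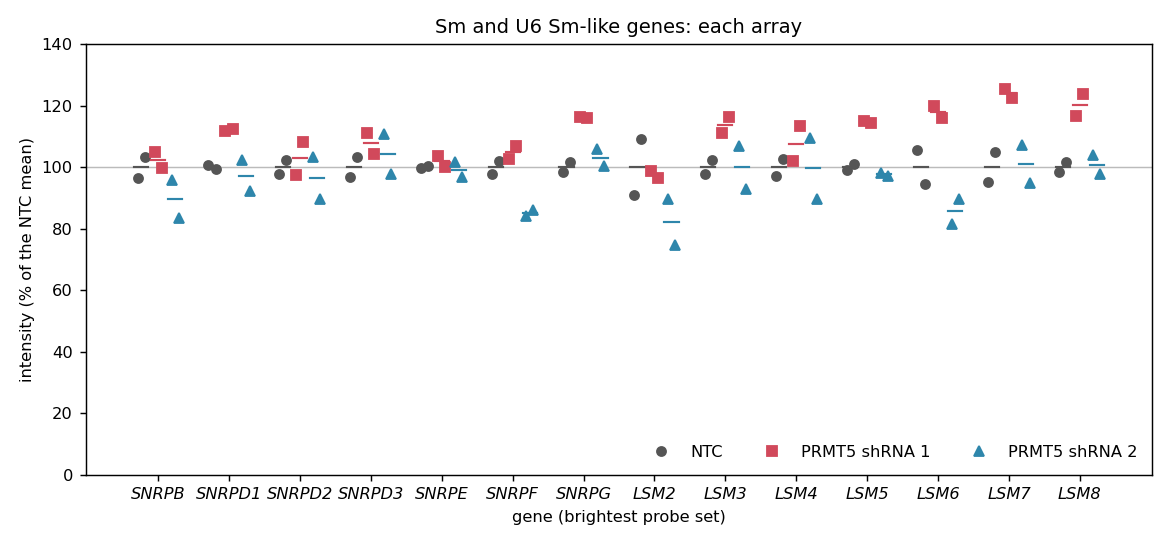
Intensity of each array as a percentage of the NTC mean for the 7 Sm and 7 U6 Sm-like genes (brightest probe set); short lines are means of 2 arrays. Among others, LSM5, LSM6, LSM7, LSM8 and SNRPG were above control on both PRMT5 shRNA 1 arrays, and LSM6 and SNRPF below control on both PRMT5 shRNA 2 arrays.

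Different probe sets of a gene did not always give the same answer. Of the 18 members with more than 1 kept probe set, 8 had all of them on the same side of 0 with PRMT5 shRNA 1 and 10 did not. Over all 66 kept member probe sets, limma called 7 higher and 18 lower with PRMT5 shRNA 1 (37.9% called), against 36.4% of all 28644 kept probe sets (17.5% higher, 19.0% lower). With PRMT5 shRNA 2 it called 0 higher and 8 lower (12.1%), against 18.0% (9.38% higher, 8.63% lower). On average it called 1 higher and 16 lower (25.8%), against 28.2% (13.5% higher, 14.7% lower). Between the hairpins it called 14 higher and 14 lower (42.4%), against 25.8% (13.1% higher, 12.7% lower).

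LSM8 was the gene called both ways between the hairpins and also with PRMT5 shRNA 1. Its brightest probe set was higher by 0.26 ± 0.07. The next brightest read 345.4 and 304.0 with NTC, 222.0 and 240.9 with PRMT5 shRNA 1, and 315.9 and 305.0 with PRMT5 shRNA 2, and was lower by 0.46 ± 0.08 (limma, adjusted p = 0.0018 over all kept probe sets). The dimmest read 81.0 and 80.5, 53.4 and 52.8, and 65.3 and 70.0, and was lower by 0.49 ± 0.10 (adjusted p = 0.0031). The remaining probe set was lower by 0.37 ± 0.12 (adjusted p = 0.027). These 3 probe sets were below control on all PRMT5 shRNA 1 arrays while the brightest was above it. With the mean over probe sets the LSM8 difference was therefore -0.27 with PRMT5 shRNA 1 (adjusted p = 0.00676) and 0.13 between the hairpins (adjusted p = 0.136).

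LSM3 and GEMIN6 had a dim probe set that fell and a bright one that did not pass. The bright LSM3 probe set had 0.18 ± 0.07 with PRMT5 shRNA 1 (limma, adjusted p = 0.058 over all kept probe sets). Its dimmer one read 246.9 and 242.7 with NTC, 173.1 and 180.1 with PRMT5 shRNA 1, and 230.9 and 219.5 with PRMT5 shRNA 2, and fell by 0.44 ± 0.08 (adjusted p = 0.0016). The dimmer GEMIN6 probe set fell by 0.36 ± 0.11 with PRMT5 shRNA 1 (adjusted p = 0.023), where the bright one had 0.10 ± 0.07.

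LSM4 rose on its dimmest probe set by 0.50 ± 0.09 with PRMT5 shRNA 1 (limma, adjusted p = 0.0012 over all kept probe sets), from 312.3 and 340.5 with NTC to 464.9 and 468.6. Its brighter probe sets had 0.10 ± 0.09 and 0.14 ± 0.08 and did not pass. SNRPD1 fell on its dimmer probe set, which read 920.9 and 927.8 with NTC, 839.5 and 848.8 with PRMT5 shRNA 1, and 696.1 and 735.2 with PRMT5 shRNA 2. That probe set was below control on all 4 knockdown arrays, by 0.25 ± 0.05 on average (adjusted p = 0.0055) and 0.36 ± 0.06 with PRMT5 shRNA 2 (adjusted p = 0.0019). LSM5 was called higher on its brightest probe set with PRMT5 shRNA 1, while its other probe sets had 0.01 ± 0.07 and -0.13 ± 0.09 and did not pass. SNRPE changed little on its brightest probe set, at 0.03 ± 0.05 with PRMT5 shRNA 1 and -0.04 ± 0.05 between the hairpins. A nearly as bright one was higher with PRMT5 shRNA 1 by 0.21 ± 0.06 (limma, adjusted p = 0.0155). It also differed between the hairpins by -0.25 ± 0.06 (adjusted p = 0.0104). Dimmer probe sets of SNRPB (-0.22 ± 0.07, adjusted p = 0.0311) and GEMIN2 (-0.31 ± 0.10, adjusted p = 0.034) passed between the hairpins as well. The array's files used here do not say which part of a transcript each probe set reads, and the cause of these differences was not tested.

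**Figure D4:**
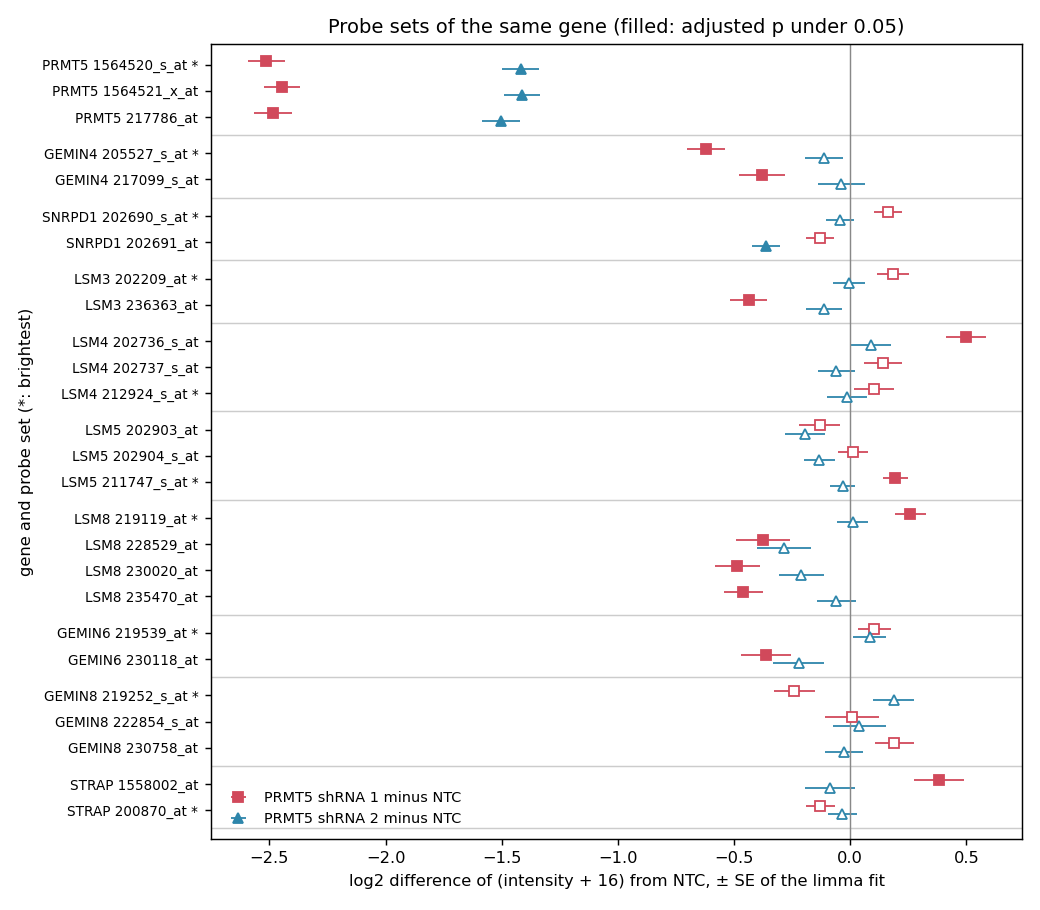
Log2 difference of (intensity + 16) from NTC for each kept probe set of 10 members, with PRMT5 shRNA 1 as squares and PRMT5 shRNA 2 as triangles; bars are the SE of limma's fit over all kept probe sets and filled symbols mark an adjusted p under 0.05. The 3 PRMT5 probe sets lie between -2.45 and -2.51 with PRMT5 shRNA 1, whereas LSM8 spans 0.26 to -0.49 with PRMT5 shRNA 1.

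Other genes of the same pathways were read from 6 further lists. Of 13 tested factors for snRNA export, cap hypermethylation, import and snRNP assembly, 2 were higher and 3 lower on average (38.5% called, against 32.4% of all genes), with a median of -0.03. SNUPN (snurportin 1), which imports assembled snRNPs into the nucleus, read 75.5 and 98.3 with NTC, 146.7 and 125.1 with PRMT5 shRNA 1, and 150.5 and 139.8 with PRMT5 shRNA 2. It was above control on all 4 knockdown arrays, by 0.61 ± 0.10 on average (limma, adjusted p = 0.0012). SART3, a U6 snRNP recycling factor, fell by 0.31 ± 0.06 (adjusted p = 0.0026), DDX20, the SMN complex helicase, by 0.25 ± 0.08 (adjusted p = 0.029), and ZPR1 rose by 0.29 ± 0.07 (adjusted p = 0.0077). DDX20 and ZPR1 did not pass with PRMT5 shRNA 2 alone (-0.13 ± 0.09 and 0.23 ± 0.08, adjusted p = 0.343 and 0.0647).

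Of 17 proteins particular to single snRNPs, 0 were higher and 5 lower on average (29.4% called, against 32.4% of all genes), with a median of -0.07. With PRMT5 shRNA 1 limma called 1 higher and 5 lower (35.3%, against 39.3% of all genes). With PRMT5 shRNA 2 it called 0 (against 21.5% of all genes), with 4 at an unadjusted p under 0.05. PRPF8, the central U5 protein, fell by 0.33 ± 0.06 (limma, adjusted p = 0.0019) and SNRPA1 of the U2 snRNP by 0.25 ± 0.05 (adjusted p = 0.0020). SNRPA1 had -0.39 ± 0.05 with PRMT5 shRNA 1 and -0.11 ± 0.05 with PRMT5 shRNA 2 (adjusted p = 0.178). Of 11 genes for S-adenosylmethionine, the methyl donor, and methylthioadenosine, 1 was higher and 3 lower (36.4% called), with a median of -0.0034. SRM, the spermidine synthase, which makes methylthioadenosine, fell by 0.40 ± 0.07 (adjusted p = 0.0019). MTAP, which removes methylthioadenosine, an inhibitor of PRMT5, read 307.3 and 351.9 with NTC, 237.5 and 259.7 with PRMT5 shRNA 1, and 221.3 and 270.0 with PRMT5 shRNA 2, and fell by 0.39 ± 0.09 (adjusted p = 0.0071).

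Of 8 tested readers of methylarginine and regulators of the enzymes, 2 were higher and 2 lower on average (50.0% called, against 32.4% of all genes, 15.4% higher and 17.0% lower), with a median of -0.09. TDRKH, a Tudor domain protein, read 352.3 and 332.4 with NTC, 197.3 and 188.9 with PRMT5 shRNA 1, and 232.1 and 258.1 with PRMT5 shRNA 2, and fell by 0.62 ± 0.07 (limma, adjusted p = 8.5e-05). SMARCA4 (BRG1), a remodelling ATPase, fell by 0.40 ± 0.07 (adjusted p = 0.0016), and BTG1, which binds PRMT1, rose by 0.29 ± 0.05 (adjusted p = 0.0013). EPB41L3 rose by 0.78 ± 0.10 (adjusted p = 0.00017), from 7.8 and 8.6 with NTC, below the array medians, so the size of its change depends on the added 16.

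Of 8 histone pre-mRNA processing factors that work with U7, 0 were higher and 1 lower on average (12.5% called, against 32.4% of all genes). That gene, ZNF473 (ZFP100), which binds LSM11, read 279.5 and 288.0 with NTC, 210.9 and 209.3 with PRMT5 shRNA 1, and 228.1 and 239.6 with PRMT5 shRNA 2, and fell by 0.33 ± 0.07 (limma, adjusted p = 0.0031). All 4 knockdown arrays were below both controls, as for LSM11. Of 6 other Sm-like or associated proteins, 0 were higher and 1 lower (16.7% called), NAA38 (-0.26 ± 0.09, adjusted p = 0.047). With PRMT5 shRNA 1, LSM1 (0.21 ± 0.06, adjusted p = 0.0155) and LSM12 (0.24 ± 0.07, adjusted p = 0.014) of this list were higher.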

How the data were processed

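RNA of 6 VCaP samples was amplified, labelled with biotin and hybridised, per the labels' protocols. The authors deposited linear intensities, 1 per probe set, computed with MAS5 per the submitters' processing notes. Its version and any later steps: not given in the sources used here. The mean after trimming 2% at each end was 150 on each array, so the arrays came already scaled and were not scaled again. Their number limits the precision. Groups and replicate numbers came from the sample titles, and 0 value columns lacked a sample.

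Probe sets were named through the platform annotation (41091 with 1 symbol, 1801 with several, 11721 unnamed, 62 controls left out). Entrez IDs matched 41037 of the first kind to the RefSeq table of GRCh38.p14, which changed 0 symbols. Values were fitted as log2(intensity + 16) by limma 3.58.1 (R 4.3.3; moderated with an intensity trend), with a coefficient per group over all 6 arrays and 3 residual degrees of freedom. A second fit over all 28644 kept probe sets served the further probe sets of a gene. The script was tested on simulated data. All tests were two-sided, and p-values were adjusted over all features tested.

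Members, gene lists and tests were chosen with earlier results of these data known. Every member called in any comparison, PRMT5 and its partners are given by array. Of the other lists, genes called on average may be named, at most 5 each; LSM1 and LSM12 fall outside that rule and were named after their values were seen. Alternatives were pseudocounts, filters, probe set choice, quantile normalization, the variance trend, a replicate block, pooled hairpins and each array left out.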

Additional observations from a re-analysis of the deposited data

Results flagged for a closer look

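The tested difference between the effects of the PRMT5 hairpins drew attention to 13 members. PRMT5 shRNA 2 gave higher log2 values than PRMT5 shRNA 1 for PRMT5 (1.09), GEMIN4 (0.51), GEMIN8 (0.43), PRMT2 (0.40), COPRS (0.38) and RIOK1 (0.37). It gave lower values for LSM6 (-0.44), SNRPF (-0.30), LSM7 (-0.28), LSM8 (-0.25), LSM5 (-0.23), PRMT1 (-0.22) and SNRPD1 (-0.21). PRMT5 itself was reduced further by PRMT5 shRNA 1. The 2 replicates per group are too few to look for single outlying arrays.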

How the results depend on the processing

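Of 39 calls of a member in a comparison, 13 kept their direction and call in every alternative run. These 13 are all 4 for PRMT5, RIOK1 with PRMT5 shRNA 1, COPRS with PRMT5 shRNA 1 and between hairpins, LSM6 between hairpins, LSM11 on average and with PRMT5 shRNA 1, GEMIN4 with PRMT5 shRNA 1 and between hairpins, and GEMIN5 on average. The number of members called ranged from 5 to 10 (average), 7 to 18 (PRMT5 shRNA 1), 1 to 6 (PRMT5 shRNA 2) and 4 to 19 (between hairpins) with 1 array left out. Why these counts moved was not tested. With both hairpins as 1 group, 3 members were called on average, against 12.1% of all genes. Without _x_at and _s_at probe sets, 27 members remained. Of these, 8 were called for PRMT5 shRNA 1 (39.9% of all genes) and 8 between hairpins (25.7% of all genes).

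Called differences turned direction, or turned and became called, in fits of other probe sets and in no other alternative run. Differences uncalled in both the main and the alternative fit changed sign 35 times with other processing and 52 times with 1 array left out. The totals were 1263 and 840 values, called ones included. With the mean over probe sets LSM8 gave -0.20 on average, -0.27 with PRMT5 shRNA 1 and 0.13 between hairpins, and CLNS1A and STRAP gave -0.19 each between hairpins. Without _x_at and _s_at probe sets CLNS1A gave -0.39 and GEMIN8 -0.22 between hairpins, LSM5 -0.13 with PRMT5 shRNA 1 and SNRPD1 -0.25 on average. The cause was not tested. With the replicate block, 8, 13, 5 and 12 members were called for the average, PRMT5 shRNA 1, PRMT5 shRNA 2 and between hairpins. The shares over all genes in that fit were 29.9%, 36.8%, 19.7% and 22.9%, and PRMT5 had -1.97 on average. Differences between replicates 2 and 1 correlated across genes at -0.09, -0.18 and -0.00 between groups, so equal numbers did not deviate together.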

Other observations

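SNRPN encodes SmN, a close relative of SmB, and shares a transcript with SNURF. Its own probe set was at background, but 3 probe sets are annotated to SNURF and SNRPN together and were outside the member rule. The dimmest read 85.1 and 87.7 with NTC, 256.1 and 239.3 with PRMT5 shRNA 1, and 165.3 and 190.6 with PRMT5 shRNA 2. The brightest read 1436.6 and 1461.1, 1972.7 and 2079.6, and 2006.4 and 1785.0, and the remaining one read 725.7 and 768.1, 1128.3 and 1238.5, and 1146.4 and 957.4. All 3 were above both controls on all 4 knockdown arrays, in that order by log2 differences of 1.14 ± 0.08, 0.43 ± 0.06 and 0.57 ± 0.07 (SE) on average (limma over all kept probe sets, adjusted p = 2.0e-06, 0.00023 and 0.00022). These differences exceed those of each of the 14 tested Sm and U6 Sm-like genes. A further 5 kept probe sets, annotated to SNRPN with several other transcripts, had averaged differences from 0.05 to 0.76. The probe set shared by SMN1 and SMN2 read 726.5 and 746.3, 766.3 and 909.2, and 763.8 and 860.0, with 0.16 ± 0.07 on average (adjusted p = 0.14).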
